A study of Gallus gallus with 6 samples.

Results

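The genes described here are those of the proteasome, chosen from the RefSeq annotation of the chicken assembly GRCg7b as coding genes whose symbol starts with PSMA to PSMG and a number. They are 40 of 17839 coding genes placed on chromosomes, and they lie on 20 chromosomes. One of them, PSMC3IP, shares the start of the symbol but encodes a protein of meiotic recombination and no proteasome subunit. The rule keeps it, so counts and shares of the 40 proteasome genes include it beside the other 39. The symbol rule used no measured value. PSMB6, PSMC4 and PSMD8 were not analysed here.

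The proteasome is the protease that degrades proteins tagged with ubiquitin. Its core particle is a barrel with outer alpha rings (PSMA genes) and inner beta rings (PSMB genes), and some beta subunits carry the active sites. A regulatory particle docks on the barrel, and its base ATPases (PSMC) unfold the substrate. Some of its non-ATPase subunits, which most PSMD genes encode, bind ubiquitin or remove it. Activators (PSME), an inhibitor (PSMF1) and assembly chaperones (PSMG) complete the set. In fat cells, as in other cells, proteasomes control the amounts of many regulatory proteins.

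Accessible chromatin of abdominal fat was profiled with ATAC-seq, where Tn5 transposase inserts into DNA free of nucleosomes, in 6 birds of the NEAUHLF chicken population. The labels give 2 lines, FL and LL, with 3 birds each and 1 library per bird. NEAUHLF is known as a broiler population bred in divergent directions for abdominal fat content. The labels give no age, sex or treatment of the birds and no sorting of cells. The data are 1 peak list per library, that is, the places where the authors' peak caller found more fragments than its local background. A gene end counts as occupied when a peak overlaps the window of 1 kb to either side of an annotated end. The annotation used has no strand, so the ends are named by coordinate, lower or higher, and the end at which transcription starts is not told apart from the other.

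The lists held 15628 to 73410 peaks, the longest in LL replicate 1 and FL replicate 1 (73410 and 58060), and these libraries stood apart from the other 4. Read totals are not in the lists, and the genome-wide background solved from the peak scores was 2.23 to 8.73 fragments over a base. Of 9 adipocyte marker genes, 6 to 9 had an occupied end by library, against 41.5% to 72.3% of all coding genes. FABP4, PPARG, LPL and PNPLA2 were occupied in all 6 libraries (4 of 9, against 35.7% of coding genes). ADIPOQ, CEBPA, CIDEC and PLIN1 were occupied in 5 libraries and DGAT2 in 3. Endothelial genes were occupied at 5 and 6 of 6 in FL replicate 1 and LL replicate 1 and at 0 to 2 in the other libraries. For fibroblast genes these counts were 5 and 6 of 6 against 0 to 3, and for myeloid genes 5 and 6 of 6 against 2 to 4. Of all coding genes, 69.5% and 72.3% were occupied in FL replicate 1 and LL replicate 1, and 41.5% to 56.6% in the others. In bulk tissue, fewer cells of a type, fewer open copies per cell and a shorter list of called peaks cannot be told apart.

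In each library, 82.5% or more of the proteasome genes had an open end. All 40 were occupied in FL replicate 1 and in LL replicate 1. The count was 36 in FL replicate 2 and 35 in FL replicate 3, and it was 33 in LL replicate 2 and 35 in LL replicate 3. Of all coding genes, 69.5%, 56.6% and 54.7% were occupied in the FL libraries and 72.3%, 48.6% and 41.5% in the LL libraries, each in replicate order. The lowest proteasome share was 82.5% (33 of 40, exact 95% interval 67.2% to 92.7%), in LL replicate 2. In the library with the shortest list, LL replicate 3, it was 87.5% (interval 73.2% to 95.8%). These intervals cover counting error only. They treat the genes of 1 library as independent draws and hold no spread between birds. Occupied pairs of gene and library numbered 219 of 240.

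**Figure D1:**
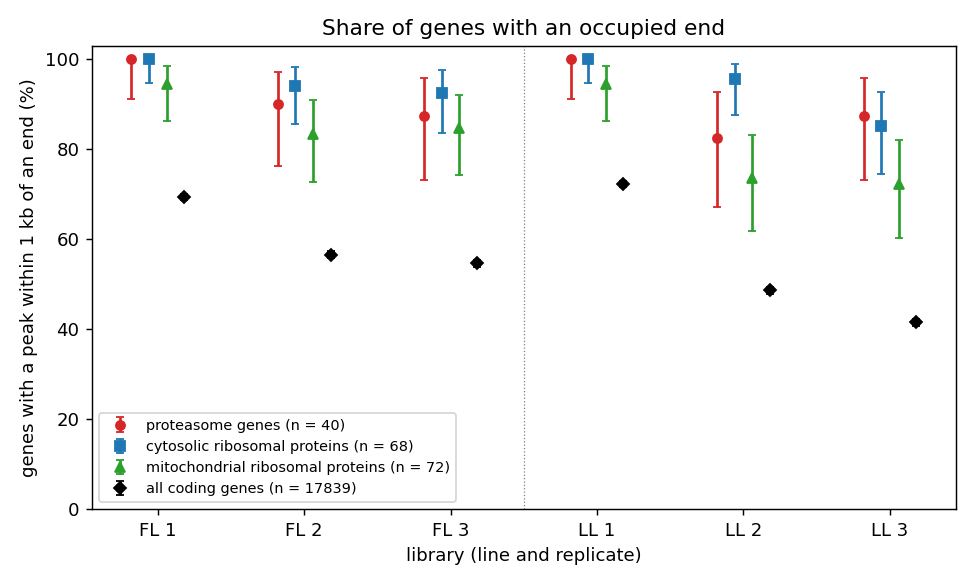
Share of genes (vertical axis, percent) whose end is occupied, by library (horizontal axis, 6 libraries), for 40 proteasome genes, 68 cytosolic and 72 mitochondrial ribosomal protein genes and all 17839 coding genes. Bars are exact 95% binomial intervals, which treat genes as independent draws and hold no spread between birds. The proteasome genes stay between 82.5% and 100% while all coding genes range from 41.5% to 72.3%.

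Of the 40 genes, 30 were occupied in all 6 libraries, a share of 75% against 35.7% of all coding genes. Without PSMC3IP it was 30 of 39 genes (76.9%). None of the 40 was unoccupied throughout, against 22.8% of coding genes. The 30 were the same without FL replicate 1 and LL replicate 1, where all coding genes were at 35.7% again. All 40 were occupied in both of these libraries, so leaving them out could not change the count. In other many-subunit complexes the genes occupied in all 6 libraries were 80.9% of the 68 cytosolic ribosomal protein genes, 63.9% of the 72 mitochondrial ribosomal protein genes, 8 of 8 genes of the CCT chaperonin, 10 of 12 of the translation factor eIF3 and 6 of 9 of the COP9 signalosome, whose subunits are related to those of the regulatory particle. The share of proteasome genes lies within the range of these complexes, and no test of the differences was run.

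By role, the alpha ring had 6 of 7 genes occupied in all 6 libraries and the beta ring 5 of 6. The base ATPases had 4 of 5 and the PSMD genes 9 of 13. PSMD5, PSMD9 and PSMD10, which act in assembling the base and are no subunits of it, were among these 9. All 4 PSMG assembly chaperones and the inhibitor gene PSMF1 were occupied throughout, as was 1 of 3 activators, PSME3. PSMC3IP was occupied in 2 libraries, FL replicate 1 and LL replicate 1, whose lists are the longest. With lists of equal length it was again occupied in these 2 libraries alone. The 21 empty pairs were those of the 10 genes not occupied in all 6 libraries, PSMC3IP among them. Of the 21, 7 were in LL replicate 2, where 82.5% of the proteasome genes and 48.6% of all coding genes were occupied.

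**Figure D2:**
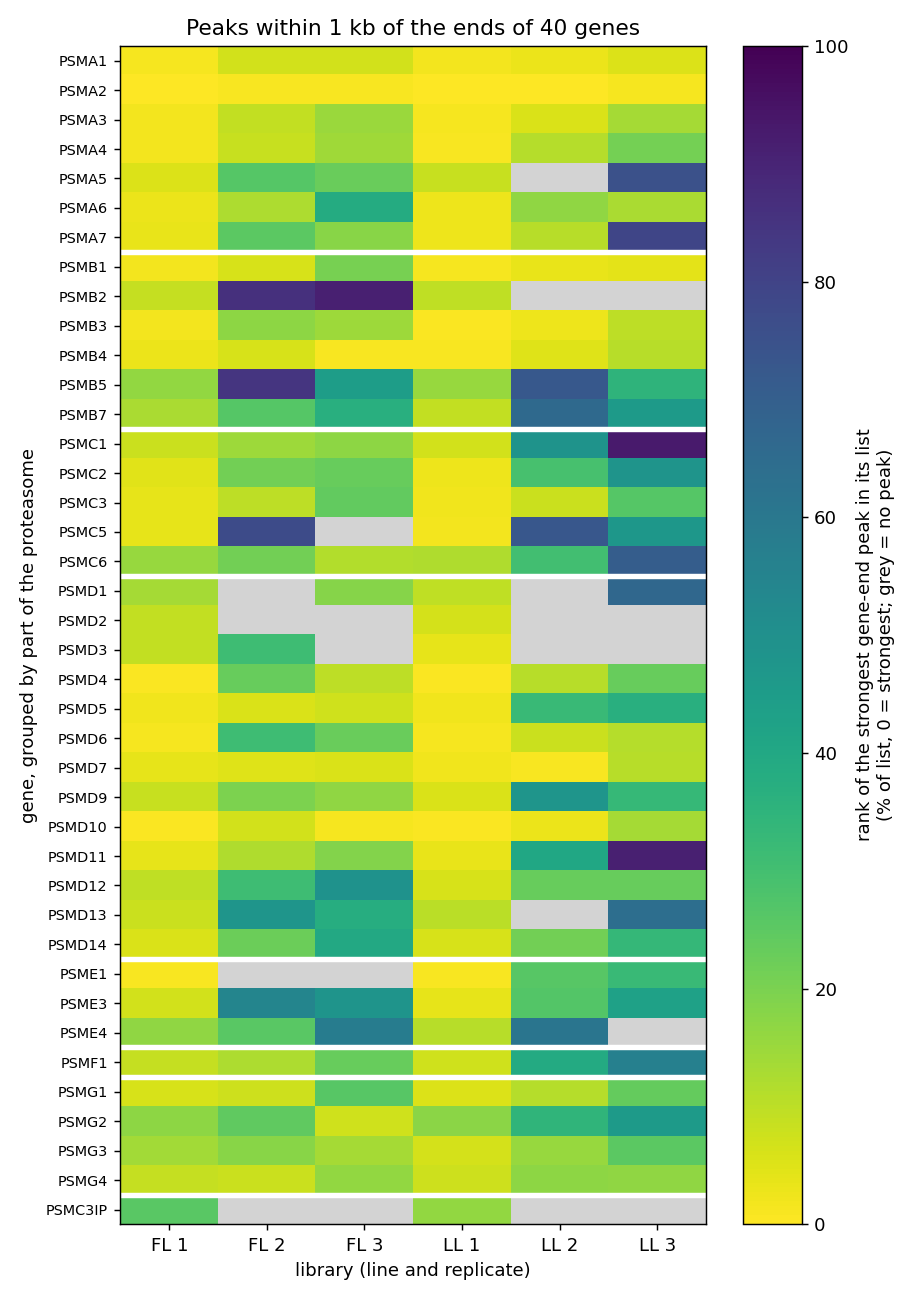
Rank of the strongest gene-end peak of each of the 40 genes (rows, grouped by part of the proteasome) in each library (columns), as a percentage of that library's list, with 0 the strongest and grey for no peak. PSMA2 has a poorest rank of 1.5%, whereas PSMD2 and PSMC3IP have a peak in FL replicate 1 and LL replicate 1 alone.

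The strength of a peak was read as its rank by −log10 q within its own list, so that 1% means the top hundredth of the list. The lists differ in length (15628 to 73410 peaks), so the same percentage stands for different numbers of peaks. Differences in a gene's rank between libraries therefore show no change in its peak. Among occupied genes, the median rank of the proteasome genes was 5.58%, 18.9% and 18.2% in the FL libraries, in replicate order, and 3.78%, 16.8% and 32.4% in the LL libraries. All coding genes with an occupied end had medians of 10.9%, 18.8% and 24.3% in FL and 9.87%, 27.4% and 29.6% in LL. The proteasome genes thus ranked higher in 4 libraries, about level in FL replicate 2 and lower in LL replicate 3. The alpha ring had medians of 1.89%, 9.15% and 15.2% in FL and 1.84%, 8.17% and 13.4% in LL, ahead of all coding genes in each library. The beta ring had 5.86%, 21.8% and 28.6% in FL and 5.44%, 4.92% and 10.6% in LL, so it was behind the alpha ring in 4 libraries and ahead of it in LL replicates 2 and 3. These medians hold occupied genes alone, and the count of genes behind them differs by library.

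PSMA2, an alpha ring subunit (chromosome 2, 51155736 to 51161553), had the strongest end by its poorest rank. Its peak at the higher end covered 433, 84 and 107 fragments at the summit in FL and 660, 136 and 93 in LL, in replicate order here and in the values that follow. The authors' fold enrichment was 13.7, 8.89 and 12.2 in FL and 14.5, 8.97 and 6.21 in LL. It ranked at 0.0982%, 1.14% and 1.07% in FL and 0.112%, 0.36% and 1.5% in LL, the last being its poorest rank. The summit lay 131 to 254 bp outside the gene, toward MRPL32, a mitochondrial ribosomal protein gene that begins 327 bp away.

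PSMA1 (chromosome 5, 10081088 to 10106174) followed, with a poorest rank of 7.01%, and was the one proteasome gene with both ends occupied in all 6 libraries, which 1.97% of coding genes had. At its lower end, 391 bp from COPB1 of the COPI vesicle coat, the fold enrichment was 12.1, 6.93 and 12.4 in FL and 14.1, 7.38 and 5.15 in LL. At its higher end it was 5.96, 4.32 and 7.55 in FL and 6.24, 4.11 and 2.94 in LL, lower than at the first end in each library. That second end overlaps PDE3B by 10 bp. In mammals, PDE3B encodes the phosphodiesterase through which insulin restrains lipolysis in fat cells. A peak there cannot be assigned to one of the pair.

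PSMA3, another alpha subunit, ranked at 1.89%, 9.15% and 15.2% in FL and 1.36%, 5.71% and 13.4% in LL. PSMA4, of the same ring, ranked between 0.92% and 21.1%. PSMA6 ranked between 2.49% and 38.7%. PSMA5 was occupied in 5 libraries, at ranks from 5.33% to 75%. In LL replicate 2 its nearest peak lay 1556 bp from the end, outside the window. PSMA7 was occupied in all 6, but its summits lay inside the annotated gene, at offsets of -672 to -925 bp from the end, beyond the end of SS18L1, which reaches 290 bp into PSMA7.

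The beta ring held ends of both high and low rank. PSMB4, a structural beta subunit (chromosome 25, 2765152 to 2767437), had a fold enrichment of 9.34, 5.82 and 14.3 in FL and 17.0, 6.51 and 4.42 in LL, and ranked between 0.794% and 10.6%. PSMB1, whose lower end is 112 bp from TBP, the gene of the TATA-binding protein, ranked at 1.69%, 6.19% and 20.4% in FL and 1.51%, 3.17% and 3.95% in LL. PSMB3 ranked between 0.718% and 17.1%. PSMB5, which carries the chymotrypsin-like active site, was occupied in all 6 with lower ranks, at 16.4%, 84.4% and 44.2% in FL and 15.2%, 72.6% and 35.1% in LL. PSMB7, with the trypsin-like site, ranked between 9.37% and 65.9%.

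PSMB2 was the one beta subunit gene with a gap, and the one gene with an end occupied in at least 2 more FL than LL libraries (1 of 40, against 6.21% of coding genes). Its lower end (chromosome 23, gene at 4632755 to 4641112) had 105, 20 and 13 fragments at the summit in FL and 156 in LL replicate 1. LL replicates 2 and 3 had no peak nearer than 26475 and 45793 bp. The peaks of FL replicates 2 and 3 ranked at 86.2% and 91.4%, near the foot of their lists, with −log10 q of 3.11 and 3.36. With −log10 q of at least 5, or with lists of equal length, PSMB2 no longer had this difference.

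Among the base ATPases, PSMC3 ranked at 3.54%, 10.1% and 23.9% in FL and 2.01%, 8.13% and 26.4% in LL. PSMC2 ranked between 2.52% and 48.1%, and PSMC1 between 6.69% and 92.8%, the last in LL replicate 3. PSMC5 lacked a peak in FL replicate 3, where the nearest lay 12786 bp away, and its ranks elsewhere ran from 1.86% in LL replicate 1 to 77.0% in FL replicate 2. PSMC6 had its lower end occupied in all 6 libraries and its higher end, 939 bp from STYX, in 5.

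Among the 13 PSMD genes, ranks ran from 0.542% (PSMD4 in LL replicate 1) to 91.4% (PSMD11 in LL replicate 3). PSMD10, also known as gankyrin, an assembly chaperone of the base (chromosome 4, 14073046 to 14075889), had a fold enrichment of 12.1, 5.88 and 13.8 in FL and 13.6, 6.70 and 4.05 in LL. Its poorest rank was 13.5%, and its lower end lies 197 bp from the autophagy gene ATG4A. PSMD7, of the lid (chromosome 11, 18722050 to 18727333), had a fold enrichment of 7.10, 6.14 and 9.15 in FL and 9.12, 7.20 and 4.0 in LL, and ranked within the top 10.8%. PSMD11 and PSMD12, also of the lid, were occupied throughout, with poorest ranks of 91.4% and 49.1%. PSMD1, a scaffold of the base, was occupied in 4 libraries and had no end peak in FL replicate 2 or LL replicate 2.

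PSMD2, the other scaffold of the base (chromosome 9, 15588048 to 15593766), had both ends occupied in FL replicate 1 and LL replicate 1 and neither in the other 4 libraries. At the higher end, 708 bp from the translation factor gene EIF4G1, the summit had 134 fragments in FL replicate 1 and 198 in LL replicate 1. At the lower end it had 77 and 133. The ranks at the higher end, 9.33% and 6.61%, were not near the foot of those lists, yet the nearest peak in the other libraries lay 7615 to 7817 bp away. PSMD3, a lid subunit (chromosome 27, 4302269 to 4306004), was occupied in 3 libraries, with 125 fragments in FL replicate 1, 37 in FL replicate 2 and 248 in LL replicate 1. PSMC3IP had 69 fragments in FL replicate 1 and 114 in LL replicate 1 at its higher end and no peak elsewhere within 3904 bp.

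PSME1, an activator subunit that caps the core particle (chromosome 35, 228646 to 254428), was the one gene with an end occupied in at least 2 more LL than FL libraries (1 of 40, against 1.08% of coding genes). Its higher end had 357 fragments at the summit in FL replicate 1. In LL replicates 1 to 3 it had 549, 52 and 52. FL replicate 2 had no peak within 2983 bp of an end, and FL replicate 3 had one 1098 bp away, just outside the window. With a window of 2 kb the difference was 1 library. PSME3, which serves as a nuclear activator, was occupied at its lower end, 173 bp from the autophagy gene BECN1, in all 6 libraries. Its higher end, 739 bp from AOC3, an amine oxidase gene of fat cells, was occupied in 5 libraries at ranks from 30.2% to 56.8%. PSME4, an activator linked to histone degradation, lacked a peak in LL replicate 3, where the nearest lay 14985 bp away.

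The assembly chaperone genes PSMG1 to PSMG4, which act in building the alpha ring, were occupied in every library. PSMG1 ranked between 5.11% and 26.0%, and PSMG4 between 7.62% and 16.8%. PSMF1 ranked at 8.82%, 12.2% and 23.4% in FL and 7.10%, 38.9% and 56.5% in LL.

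The window's edge decided few of these calls. Of the 21 empty pairs, 2 had a peak within 2 kb, PSMA5 in LL replicate 2 and PSME1 in FL replicate 3, and the median distance to the nearest peak was 7747 bp. Just inside the edge lay second ends: the lower end of PSMA7 in FL replicate 3 with a peak 991 bp away, the lower end of PSMD13 in FL replicate 1 at 980 bp and the higher end of PSMA6 in LL replicate 1 at 976 bp. Each of these genes had a nearer peak at its other end in the same library.

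A proteasome gene kept its occupied end from library to library, as other genes did. In all 30 genes occupied in 6 libraries the same end was occupied in all 6, and so it was in 98.6% of the 6361 coding genes occupied in all 6. The other end was occupied in no library in 19 of the 30 genes (63.3%), against 66.0% of those coding genes, so the proteasome genes were near the background in both respects. The peaks at the more often occupied end of each of the 40 genes fell in 1 merged region per gene. The summits of a gene spread over a median of 163 bp between libraries, from 37 bp in PSMC2 to 1099 bp in PSMG3. The median summit lay outside the gene, by 90, 125.5 and 111 bp in the FL libraries and by 87, 146 and 142 bp in the LL libraries. Summits inside the gene in every occupied library were found in 3 genes, PSMA7, PSMG3 and PSMG4. This count, the merged regions and the spread of summits were not computed for all coding genes. By library, the strongest peak of 11.4% to 27.3% of occupied proteasome genes had its summit inside the gene, against 27.7% to 35.9% for all coding genes.

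**Figure D3:**
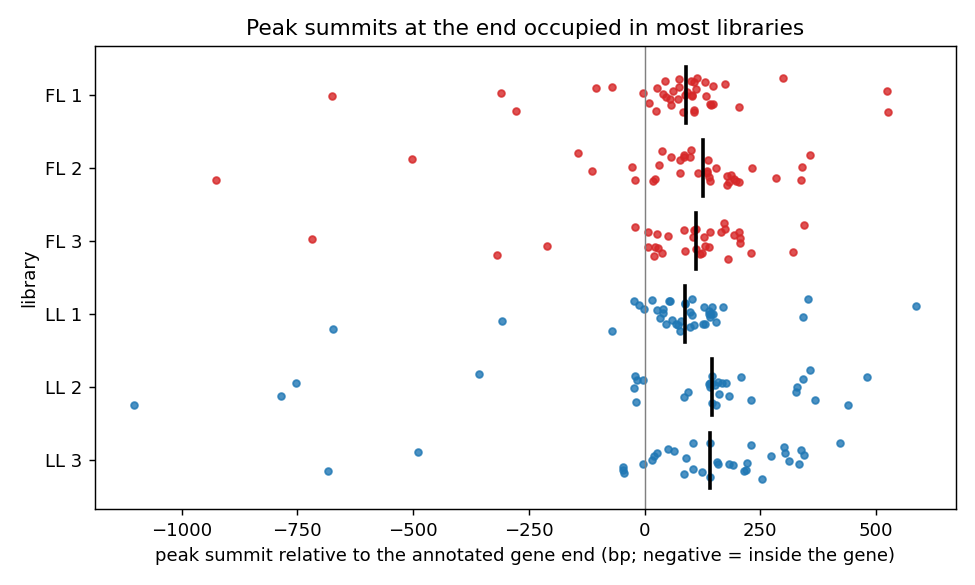
Distance of the peak summit from the annotated gene end (horizontal axis, bp, negative inside the gene) at the more often occupied end of each proteasome gene, for the 33 to 40 occupied genes of each library (rows; red FL, blue LL). Black bars are medians, which lie 87 to 146 bp outside the gene in all 6 libraries.

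Many of these ends are shared with a neighbour. A coding neighbour has an end within 1 kb of an end of 29 of the 40 genes (72.5%), against 48.5% of coding genes, and for 24 genes it is the more often occupied end. PSMD13 lies 94 bp from SIRT3, a mitochondrial deacetylase gene, PSMG2 lies 52 bp from CEP76, and PSMD7 lies 100 bp from ZFHX3. Of the proteasome genes with such a neighbour, 22 of 29 (75.9%) were occupied in all 6 libraries, and of those without, 8 of 11 (72.7%). For all coding genes these shares were 43.0% and 28.7%. A peak between such neighbours belongs to both windows, so a call for one gene is a call for the other.

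The lines did not differ in how many proteasome genes were open beyond the spread between birds. The share with an occupied end was 92.5% ± 6.61 (SD, n = 3) for FL birds against 90% ± 9.01 (SD, n = 3) for LL birds, 2.5 points apart. For all coding genes it was 60.3% ± 8.06 against 54.2% ± 16.1, or 6.09 points apart. That gap of the coding genes rested on single libraries: it was -0.216 points without LL replicate 3, 1.47 without FL replicate 1, 3.33 without LL replicate 2 and 15.2 without LL replicate 1. No proteasome gene was occupied in all libraries of one line and none of the other, a pattern of 0.275% of coding genes for FL and 0.0448% for LL. These were 49 and 8 coding genes, and the counts depended on the lists: 136 and 34 at equal list lengths, and 10 and 12 with peaks of at least 178 bp, with no proteasome gene among them in either setting. Gene by gene, an exact two-sided permutation test over the 20 assignments of libraries to lines called 0 of 17839 coding genes after Benjamini-Hochberg adjustment, and 0 had an unadjusted p under 0.05. With 3 birds per line the smallest p possible is 0.1. Among the proteasome genes the lowest unadjusted p from this exact permutation test was 0.4, with an adjusted p of 1.

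The order of strength among the genes was partly shared between libraries. Over the 30 genes occupied in all libraries, Spearman's rho of the ranks between 2 libraries ran from 0.367 to 0.952 with a median of 0.546. The highest value joined FL replicate 1 and LL replicate 1, birds of different lines, and the lowest joined FL replicate 3 and LL replicate 3. For 6361 coding genes occupied in all libraries the range was 0.381 to 0.925 and the median 0.568. These are correlations across genes, which are not independent replicates, and peak rank also carries local background and width.

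Genes that act with the proteasome were counted from lists and are described without a test. Their counts in all 6 libraries stand beside 35.7% of all coding genes. Of 10 genes of proteasome parts and helpers outside the symbol rule, 9 were occupied in all 6 libraries, and the deubiquitinase gene USP14 lacked LL replicate 3. Of 18 genes of ubiquitin supply and delivery, 12 were occupied in all 6. Among the other genes, UBQLN4, a ubiquitin shuttle gene, was occupied in 3 libraries, and NPLOC4, a cofactor of the unfoldase VCP, in 4. Of 10 genes of transcription factors and cofactors linked to proteasome gene control, 5 were occupied in all 6: MAFF, NFE2L2, NFYA, NFYB and NRF1. Unlike MAFF, the other small MAF partners MAFG and MAFK were occupied in FL replicate 1 and LL replicate 1 alone. NFE2L1, which in mammals raises proteasome genes when proteasomes are inhibited, was occupied in FL replicates 1 and 3 and LL replicate 1.

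Away from gene ends, the mean density of open regions around proteasome genes was near that of all coding genes. Distal regions were merged peaks outside 1 kb of any annotated gene end and within 50 kb of either end of the gene, and a library's count per 100 kb was set relative to its mean over coding genes. The mean ratio was 1.08 ± 0.134 (SD, n = 3) for FL birds against 1.05 ± 0.136 (SD, n = 3) for LL birds, and the gap of 0.0266 is smaller than the spread. The ratio was above 1 in both lines for 13 of the 40 genes, against 32.2% of coding genes. In counts, a proteasome gene had a median of 4, 1 and 1 distal regions in the FL libraries and 7, 1 and 1 in the LL libraries, where all coding genes had 5, 1 and 1, and 7, 1 and 1.

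The genes differed widely from each other. PSME1 had the most distal regions for its window, with 9, 13 and 9 in FL and 11, 4 and 5 in LL. Its ratio was 1.66, 6.88 and 5.82 in FL and 1.41, 2.21 and 4.44 in LL, so the lines overlapped. PSMD6, a lid subunit gene, had a mean ratio of 2.66, PSMA6 one of 2.47 and PSMB7 one of 2.23. PSMD2 had the fewest, 1 region in FL replicate 1 and LL replicate 1 and none elsewhere. The 5 base ATPases averaged 0.433 in FL and 0.794 in LL, below the coding mean in all 6 libraries. They had a mean of 0.4 regions per gene in FL replicates 2 and 3. The 4 PSMG chaperones (0.871 in FL and 0.626 in LL) and the 8 CCT genes (0.681 and 0.758) were also below the coding mean in all 6. The median ratio of coding genes was itself below 1 in each library, at 0.659 to 0.934.

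**Figure D4:**
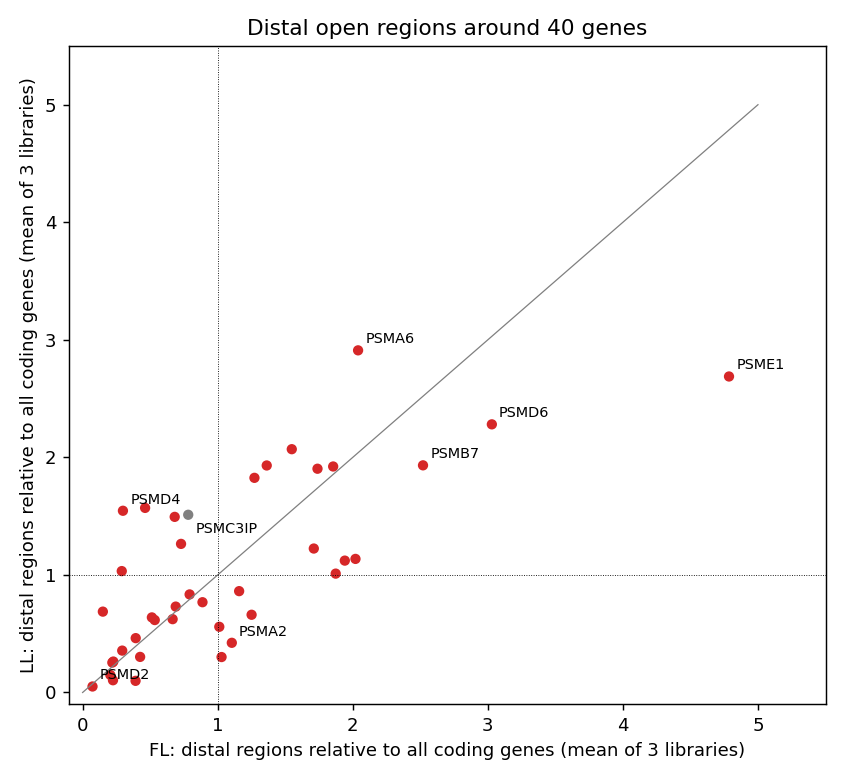
Mean number of distal open regions per 100 kb around each of the 40 genes, relative to the mean of all coding genes, in FL (horizontal axis) and LL (vertical axis), each over 3 libraries. The diagonal marks equal values and dotted lines a ratio of 1; PSME1 lies farthest out, at 4.79 in FL and 2.69 in LL, PSMC3IP is grey, and 13 genes exceed 1 in both lines.

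Of 391 distal regions around the proteasome genes, 13 (3.32%) were occupied in all 6 libraries, against 2.91% of all distal regions. Of the 13, 3 lay around PSME1, at 222790 to 223202, 233526 to 234159 and 266314 to 266678 on chromosome 35. The first had a fold enrichment of 8.76, 9.86 and 10.2 in FL and 8.31, 10.3 and 10.2 in LL, and the second lies inside PSME1. The others lay around PSMA1 (2 regions), PSMA6, PSMB7, PSMC3, PSMD10, PSMD11, PSMD5, PSMD7 and PSMG2. The region near PSMD7, at 18703942 to 18704770 on chromosome 11, had a fold enrichment of 6.69, 3.98 and 8.84 in FL and 9.38, 4.46 and 4.07 in LL.

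No distal region around a proteasome gene was present in the 3 FL libraries while absent from LL (0.183% of all distal regions were), and 2 of 391 had the reverse pattern (0.512%, against 0.0871%). Both lie on chromosome 35 beyond PSMB5, at 409339 to 409700 and 413540 to 413901, inside the gene LOC121108129, 17564 and 21765 bp from the nearer end of PSMB5. Their fold enrichment in LL replicates 1 to 3 was 3.95, 4.03 and 4.5 for the first and 2.86, 4.71 and 4.32 for the second. They were named after their values were seen, and as neighbours they are not independent of each other.

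Gene by gene, the exact permutation test of the distal ratio also called 0 of 17839 coding genes, with 0 at an unadjusted p under 0.05. The ratios of the lines did not overlap for 3 genes, again named after their values were seen. PSMA2 was higher in FL (1 of 40, against 4.46% of coding genes), with ratios of 0.66, 1.89 and 0.768 in FL and 0.61, 0.657 and 0 in LL. Its lowest FL ratio, 0.66, and its highest LL ratio, 0.657, were nearly equal. It had 3, 3 and 1 distal regions in FL and 4, 1 and 0 in LL. PSMD4, a ubiquitin receptor gene, and PSMC3IP were higher in LL (2 of 40, against 3.89%). PSMD4 had 4, 0 and 0 distal regions in FL and 10, 3 and 1 in LL. PSMC3IP had 4, 1 and 1 in FL and 9, 3 and 1 in LL. The counts of all 3 genes overlapped between the lines, and the ratios to the library mean did not. The ratios of PSMD4 were 0.896, 0 and 0 in FL and 1.55, 2.01 and 1.08 in LL. Those of PSMC3IP were 0.906, 0.648 and 0.792 in FL and 1.42, 2.03 and 1.09 in LL. Each of the 3 genes had an unadjusted p of 0.1 in the exact permutation test, the smallest possible, and an adjusted p of 1.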

How the data were processed

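Per the labels' protocols, fat nuclei were treated with Tn5 and the cut DNA was amplified by PCR for Illumina sequencing. Tools named in the submitters' processing notes are MACS3 3.0.0b1, bedtools 2.30.0, SAMtools, BWA, Trim Galore and FastQC, with GRCg7b as the assembly. Their settings, duplicate removal and any Tn5 shift were not given in the sources used here. Each library has its own deposited peak list. The authors' columns are a score (the whole part of 10 times −log10 q, with at most 0.0518% of a list's peaks differing), a fold enrichment (a ratio over local background), −log10 p and −log10 q, and the summit. The lowest deposited −log10 q was 2.01 to 2.03. These values were used within their own list.

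The pileup and background of each peak were solved from the fold enrichment and −log10 p, with (pileup + 1) / (background + 1) as the fold and a Poisson tail as p, within a relative tolerance of 1e-04. This gave a solution for 100% of peaks, and 100% of 20000 simulated peaks were recovered. The lowest solved background of a list moves with read depth and with fragment length, so it is no measure of depth alone.

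The gene table, from RefSeq on GRCg7b, placed 25356 genes on chromosomes and held no strand, exons or sequence. The planned split by start side and the promoter motif search were therefore not run. Peaks were merged into 100148 regions at 1 bp overlap, 81476 of them distal. FL and LL were compared gene by gene with exact two-sided permutation over 20 assignments, adjusted by Benjamini-Hochberg over all coding genes. On simulated peaks, 99% of 200 FL-only and 100% of 200 LL-only genes had their planted occupancy recovered. Recovery meant the planted direction and the smallest possible p of 0.1 in the exact permutation test. The simulation held planted peaks only, so it checked the counting and did not measure the power of the test. The birds are separate animals, per the series' design text. Deviations from line means correlated at 0.46, 0.153 and 0.131 between birds of the same replicate number, all above 0.1. Replicate number was therefore used as a block in a second run of the tests, while the tests given above were not paired. Birds of different numbers reached 0.187 (FL replicate 2 and LL replicate 3) and 0.131 (FL replicate 3 and LL replicate 2). The highest value, 0.46, joined the libraries with the longest lists. Python 3.11.15, numpy 2.4.6, pandas 2.3.3 and scipy 1.17.1 were used.

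All members were counted, and values were given for genes whose lines differed by at least 2 libraries, genes occupied in at most 3, the 6 best by poorest rank, the 4 with most distal regions, and up to 4 per part. Members and lists were chosen with earlier results of these data known. The lists found 9 of 10 adipocyte, 6 of 6 endothelial, fibroblast and myeloid, 4 of 5 skeletal muscle and 3 of 5 erythroid genes; skeletal muscle genes were occupied at 1 to 3 of 4 and erythroid genes at 0 to 3 of 3. Some genes of the ubiquitin list are counted but not reported by name here.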

Additional observations from a re-analysis of the deposited data

How the results depend on the processing

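The count of proteasome genes occupied in all libraries was 30. Under the other settings it lay between 25 (−log10 q of at least 5, where 29.7% of coding genes were so occupied) and 31 (window of 2 kb). Without 1 library at a time it was 30 to 32, and leaving out a library cannot lower it. The difference in share between FL and LL moved from 2.5 points to between -0.833 (peaks of at least 178 bp) and 4.17. Without 1 library it lay between -1.25 and 7.5, with a changed sign without FL replicate 1 or LL replicate 2. All of these were smaller than the pooled SD of the main run, 7.91 points. The spread of the birds kept was not computed. For the largest, 7.5 without LL replicate 1, the shares were 100%, 90% and 87.5% in FL and 82.5% and 87.5% in LL. The difference was 0 at an equal list length of 15628 peaks. It was 3.75 without FL replicate 1 and LL replicate 1 together, a setting added after the data were seen. At equal list lengths all 40 proteasome genes were still occupied in FL replicate 1 and LL replicate 1, and PSMC3IP and PSMD2 in these libraries alone. The counts were 32 and 34 in FL replicates 2 and 3 and 31 and 35 in LL replicates 2 and 3. The shares of coding genes were then 50.5%, 47.9% and 50.1% in FL and 49.3%, 41.3% and 41.5% in LL. The number of proteasome genes occupied in LL replicate 3 fell from 35 to 29 with −log10 q of at least 5. Genes with at least 2 more FL libraries numbered 0 at equal list lengths, and with −log10 q of at least 5 the one such gene was PSMA5 in place of PSMB2. Genes with at least 2 more LL libraries numbered 2 with −log10 q of at least 5 (PSME1 and PSMC5), 3 with peaks of at least 178 bp (with PSMD11) and 0 with a window of 2 kb; PSME1 kept the difference in the other settings. Neither count was recomputed without 1 library, which leaves unequal groups.

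The distal ratio stayed between 1.02 and 1.15 in FL and 0.988 and 1.12 in LL without 1 library, and their difference between -0.0437 and 0.0978, below 0 without FL replicate 3 or LL replicate 2. It was also below 0 at equal list lengths (-0.00346) and with a distal window of 25 kb (-0.0356). In all settings the difference was smaller in size than the SD of either line in the main run (0.134 in FL and 0.136 in LL). With replicate number as a block, the 8 assignments allow a smallest p of 0.25, and the exact permutation tests called 0 genes for gene ends and 0 for distal regions, as without the block. The promoter motif alternative was not run. An empty end is one where no peak was called, not one shown to be closed. Read depth is not in the lists, and the solved background does not follow list length: it was highest in LL replicate 3 (8.73), whose list was the shortest. Why the lists differ in length was not tested.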
